A study of Homo sapiens with 30 samples.

Results

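Clustered histone genes were described here in polyadenylated RNA of MDA-MB-231 lineages. MDA-MB-231 is a mesenchymal-like human breast cancer cell line with low hormone receptor levels. Members were all rows whose symbol names an H1, H2A, H2B, H3 or H4 gene of the HIST1 to HIST4 clusters, which gave 73 of 26475 rows. The 29 rows that averaged at least 0.5 CPM (counts relative to the library's total, normalised by the trimmed mean of M-values) in any group are described: 2 H1, 7 H2A, 10 H2B, 5 H3 and 5 H4 rows. The other 44 stayed below 0.5 CPM in every group, and 17 of the 73 had no count in any library. A count of 0 allowed at most 3 counts, or 0.0751 to 0.101 CPM per library in the first table and 0.0834 to 0.111 CPM in the second, for counting error only. Just inside the limit were HIST1H3H, with a highest group mean of 0.521 CPM, and HIST1H4K, with 0.532 CPM. Just outside it were HIST2H3D with 0.466 CPM and HIST1H2AI with 0.453 CPM.

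The series asks, by its title, how clones of a tumour cooperate by exchanging soluble metabolites. It holds 30 bulk RNA-seq libraries in 10 groups of 3. Lineages 22, 35 and 45 were profiled from co-culture and in isolation, in a first table of 18 libraries, and lineages 03, 10 and 13 and a sample named Pop in isolation, in a second table of 12 libraries. The labels call all of them wild type and distinct lineages of MDA-MB-231, the design text calls the numbered ones clones, and neither explains Pop. All were grown in RPMI-1640 with 10% dialyzed serum and 2 mM glutamine. Isolation meant growth of a lineage alone for about 24 h before TRIzol lysis. Co-culture meant growth of 6 lineages together for 15 days with a bottleneck at each passage, then separation by fluorescence-activated sorting and lysis for a column kit. Co-culture, culture time, sorting and RNA isolation therefore cannot be told apart. The labels do not say that replicates came from separate cultures, so every p-value rests on the spread among these libraries, and that spread may be technical.

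Totals were 29.8 to 38.8 M counts per library in the first table and 28.1 to 35.4 M in the second. The 3 libraries labelled 35 from co-culture and those of lineage 35 in isolation had a mean log-CPM correlation of 0.924, and those labelled 35 from co-culture had 0.964 with lineage 45 in isolation and 0.984 with lineage 45 from co-culture. Each lineage from co-culture correlated better with the other lineages from co-culture than with itself in isolation: lineage 22 from co-culture had 0.979 with 45 from co-culture and 0.962 with 22 in isolation, and lineage 45 from co-culture had 0.97 with 45 in isolation. Lineage 35 in isolation had 0.921 to 0.942 with every other group of its table. The libraries are called by their label below, and every direction drawn from them rests on that label. Pop replicate 1 differed from Pop replicates 2 and 3 by a chi-square per gene of 55 and 75.3, against 6.49 between replicates 2 and 3. VIM averaged 2330 to 5910 CPM and CD44 808 to 2740 CPM over groups, and ESR1 and PGR were at or near 0.

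Histones package DNA: H2A, H2B, H3 and H4 form the nucleosome core, and linker histone H1 binds the DNA that enters and leaves it. The clustered genes are transcribed mainly in S phase, and most of their messenger RNAs end in a conserved stem-loop, bound by the stem-loop binding protein SLBP, in place of a poly(A) tail. Some members, among them HIST1H2BK, HIST1H2BD, HIST1H2BC, HIST2H2BE, HIST1H2AC and HIST1H1C, are known also to give polyadenylated transcripts, above all in cells that leave the cycle or differentiate. The libraries were made with a stranded mRNA kit per the labels, so they report the polyadenylated share of histone RNA and not total histone RNA. In bulk samples, fewer cells with such RNA and less of it per cell cannot be told apart.

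The stem-loop sites of 6 members whose values are given below are shown because this element is the signal for an end without a tail. Other members with called changes, such as HIST1H2AG, HIST1H3H, HIST2H2BC and HIST2H2BF, held it too. The histone stem-loop consensus, searched on the transcript strand in GENCODE 29 (GRCh38), was found in a transcript of 32 of 73 members (43.8%), against 114 of 19702 genes with a coding transcript (0.579%), and in 17 of the 29 rows described. Capitals mark the stem-loop, with 5 bases on each side, and coordinates are those of the capitals.
HIST1H2AC, chr6:26124669-26124684, plus strand: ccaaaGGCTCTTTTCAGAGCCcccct
HIST1H2BC, chr6:26123472-26123487, minus strand: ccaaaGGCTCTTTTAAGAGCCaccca
HIST1H2BD, chr6:26158587-26158602, plus strand: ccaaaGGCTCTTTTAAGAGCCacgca
HIST2H2BE, chr1:149886188-149886203, minus strand: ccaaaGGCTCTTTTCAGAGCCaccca
HIST2H2AA3, chr1:149842223-149842238, minus strand: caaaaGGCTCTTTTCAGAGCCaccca
HIST1H4H, chr6:26285131-26285146, minus strand: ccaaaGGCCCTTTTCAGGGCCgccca
The form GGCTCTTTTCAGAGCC was held by 17 genes and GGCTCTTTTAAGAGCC by 5, while HIST1H4H carried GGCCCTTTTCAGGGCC, also found in 5 genes. The annotated transcript of HIST2H2BE ran 1729 bases past the stem-loop, those of HIST1H2AC 1114 and 1128 bases, and that of HIST2H2AA3 35 bases. HIST1H2BD had a transcript that ended 39 bases past the stem-loop and a longer one of 789 bases with no match. The GENCODE 29 models of HIST1H2BK (381 bases) and HIST1H1C (642 bases) are a single transcript each and hold no match. Sequence past these annotated ends was not read here, so a row with no match may still have a stem-loop further on. The RefSeq gene span (GRCh38.p14) was 8566 bases for HIST1H2BK, 13229 for HIST1H2BD, 10757 for HIST1H2BC and 2224 for HIST2H2BE.

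The promoters of 3 members are shown because HIST1H2BK and HIST1H1C fell with co-culture in lineage 35 and HIST1H1E rose in all 3 lineages. Each is the RefSeq window (GRCh38.p14) from 250 bases before to 50 after the start. Capitals mark, on either strand, the octamer (ATTTGCAT), the CCAAT box, the TATA box (searched as TATAAA) and the H1 box (AAACACA). These motifs share no letters here except where TATAAA overlaps its own reverse in HIST1H2BK.
HIST1H2BK, chr6:27146809-27147108, minus strand: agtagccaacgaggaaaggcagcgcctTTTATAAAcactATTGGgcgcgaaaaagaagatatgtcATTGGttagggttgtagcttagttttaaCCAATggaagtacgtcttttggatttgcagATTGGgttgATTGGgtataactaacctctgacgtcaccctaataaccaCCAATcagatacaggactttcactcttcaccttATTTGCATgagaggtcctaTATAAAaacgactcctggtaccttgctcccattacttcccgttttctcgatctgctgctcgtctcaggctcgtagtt
HIST1H1C, chr6:26056421-26056720, minus strand: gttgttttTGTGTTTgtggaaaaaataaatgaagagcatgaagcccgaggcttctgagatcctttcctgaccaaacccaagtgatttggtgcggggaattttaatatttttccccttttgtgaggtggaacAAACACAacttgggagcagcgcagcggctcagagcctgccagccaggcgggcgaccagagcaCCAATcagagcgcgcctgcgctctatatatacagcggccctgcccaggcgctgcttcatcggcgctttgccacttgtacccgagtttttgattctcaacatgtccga
HIST1H1E, chr6:26156079-26156378, plus strand: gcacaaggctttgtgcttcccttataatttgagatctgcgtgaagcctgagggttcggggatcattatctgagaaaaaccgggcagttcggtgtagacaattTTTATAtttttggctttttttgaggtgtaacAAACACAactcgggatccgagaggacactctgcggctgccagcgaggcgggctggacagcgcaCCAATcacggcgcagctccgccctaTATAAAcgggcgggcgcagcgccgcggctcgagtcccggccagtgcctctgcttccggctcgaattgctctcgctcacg
RefSeq promoters were found for 65 of the 73 members. The octamer, a known binding site of OCT1 in H2B promoters, was in 14 of 18 H2B promoters (77.8%) and 11 of 16 H2A promoters (68.8%), against 1.77% of all 35116 promoters. The H1 box was in 6 of 6 H1 promoters, against 5.64% of all. CCAAT was in every H1, H2A, H2B and H3 promoter matched and in 3 of 13 H4 promoters, against 34.6% of all, and TATAAA was in 11.5% of all. HIST1H1C and HIST1H1E share the H1 box and CCAAT, and their levels went opposite ways with co-culture in lineage 35.

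A few members held most of the polyadenylated histone signal. The 8 rows with the highest mean took 77.1 to 95.6% of the histone counts per library in the first table and 92 to 96.3% in the second. HIST1H2BK, an H2B gene, took 34.8 to 59.8% and 46.5 to 58.8%, and HIST1H1C, which encodes linker histone H1.2, took 11.3 to 24.3% and 17.7 to 33.3%. These are shares of counts and not of molecules per length. Summed over all 73 rows, lineage 35 had 65.2 ± 6.22 CPM from co-culture and 398 ± 92.1 CPM in isolation, lineage 22 had 123 ± 4.48 and 139 ± 6.25 CPM, and lineage 45 had 82.8 ± 3.43 and 81.2 ± 3.23 CPM (SD, n = 3 each). In the second table the sums were 179 ± 30.9 CPM in lineage 03, 383 ± 17.9 in lineage 10, 572 ± 150 in lineage 13 and 255 ± 47.5 in Pop (SD, n = 3 each). Lineage 35 libraries from co-culture (59, 71.4 and 65.2 CPM) lay below those in isolation (324, 370 and 501 CPM) with no overlap, and the 3 libraries of lineage 13 (414, 591 and 712 CPM) lay above those of Pop (309, 237 and 220 CPM). The tables were made separately, so levels are compared within each.

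The classes did not share 1 pattern. In lineage 35 the H2B sum was 36.3 ± 4.79 CPM from co-culture and 267 ± 58.2 CPM in isolation, the H1 sum 13.4 ± 1.79 and 93.5 ± 26.2 CPM, and the H2A sum 9.79 ± 1.06 and 32.9 ± 7.64 CPM (SD, n = 3 each). The H4 sum was 2.94 ± 0.453 CPM from co-culture and 3.04 ± 0.25 CPM in isolation, and the H3 sum was 2.81 ± 0.469 and 1.96 ± 0.0906 CPM. H3 sums were also higher from co-culture in lineage 22 (2.99 ± 0.35 against 1.73 ± 0.269 CPM) and in lineage 45 (3.64 ± 0.388 against 2.71 ± 0.578 CPM, SD, n = 3 each). The lineage 45 libraries overlapped there (3.85, 3.89 and 3.2 against 2.6, 2.19 and 3.33 CPM). The H4 sum of lineage 45 was higher from co-culture with no overlap (3.51, 3.95 and 3.62 against 2.72, 2.4 and 2.65 CPM). In lineage 22 it averaged 3.57 CPM from co-culture and 3.62 CPM in isolation. These sums are descriptions with no test. The H3 and H4 sums are low beside those of the other classes, though above the 3-count floor of a single row. In the second table the H3 sum was 1.38 ± 0.342 CPM in lineage 03, 2.71 ± 0.31 in lineage 10, 2.68 ± 0.731 in lineage 13 and 2.65 ± 0.357 in Pop.

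**Figure D1:**
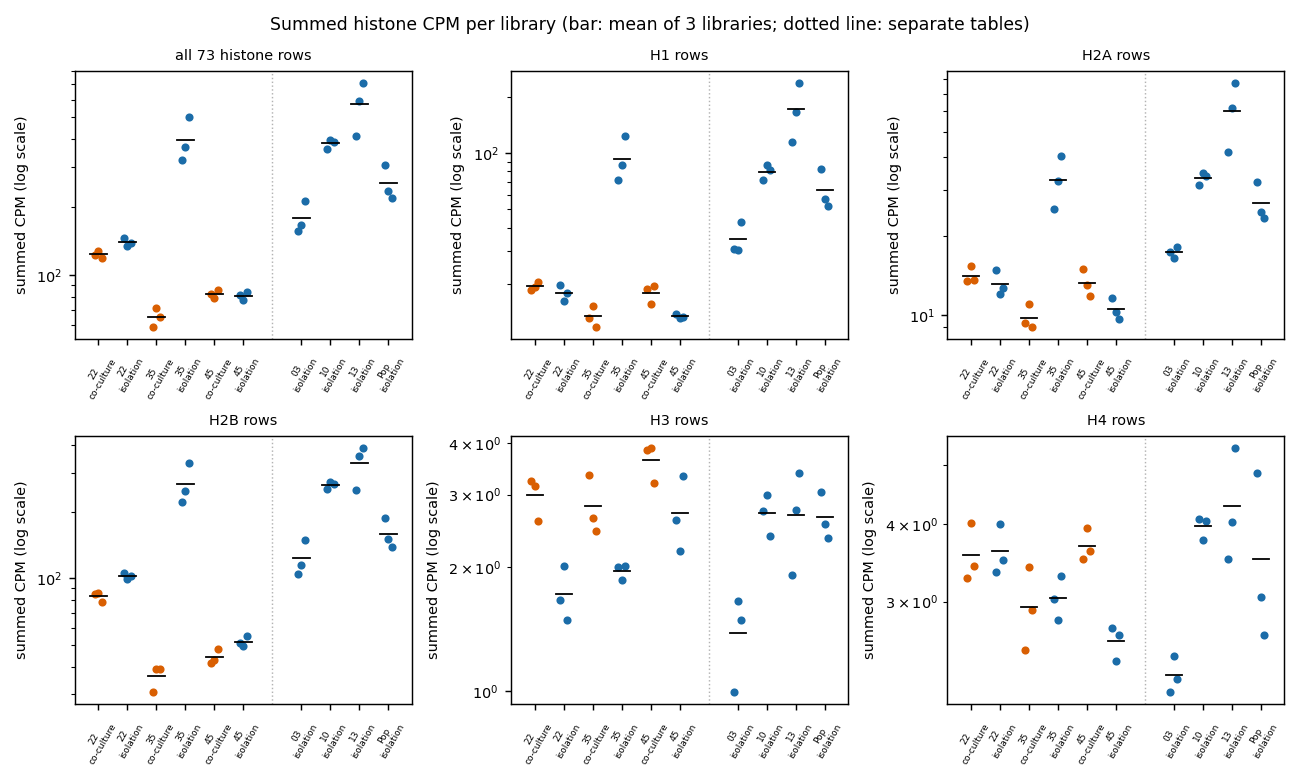
Summed CPM of each histone class per library on log axes, co-culture (orange) left of isolation (blue), with a dotted line between the tables. Points are libraries and bars group means. The H1, H2A and H2B sums of lineage 35 from co-culture lie below those in isolation, while H4 sums stay between 2.28 and 4.29 CPM as group means.

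The first comparison set co-culture against isolation in each lineage. In lineage 35, 1 of the 29 described rows rose and 13 fell (edgeR quasi-likelihood test, Benjamini-Hochberg adjusted over all 14570 genes, threshold 0.05), a share of 48.3%, where 32.7% of all genes tested rose, 32.9% fell and 65.5% did either. The count of calls therefore did not stand above the background. The median log2 fold change was -0.98 over the rows, against 0.01 over all genes. Since a row could enter through the group where it was high, the counts were also taken over the 20 rows with a mean of at least 0.5 CPM over the table, of which 1 rose and 10 fell with a median of -1.53. By class, 9 of 10 H2B rows fell with a median of -1.81, 2 of 7 H2A rows and 1 of 5 H4 rows fell, 1 of 2 H1 rows fell and the other rose, and no H3 row was called.

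HIST1H2BK had 21.7, 28.2 and 27.7 CPM in the libraries labelled 35 from co-culture, against 194, 214 and 289 CPM in lineage 35 in isolation. No library overlapped, and the level was 8.97-fold lower from co-culture (log2 fold change -3.17 ± 0.13 SE, edgeR adjusted p = 8.4e-14). HIST1H1C had 10.4, 12.8 and 9.76 CPM from co-culture, against 70.4, 84.8 and 122 CPM in isolation. It was 8.39-fold lower (-3.07 ± 0.17, edgeR adjusted p = 1.8e-11). HIST1H2AC, an H2A gene, had 1.28, 2.09 and 1.73 CPM from co-culture, against 8.36, 11.6 and 12.2 CPM in isolation, a 6.27-fold fall (edgeR adjusted p = 1e-10).

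HIST1H2BD, an H2B gene, had 2.92, 4.07 and 5.38 CPM in lineage 35 from co-culture, against 14.6, 17 and 26.2 CPM in isolation, and fell 4.66-fold (edgeR adjusted p = 2.3e-07). HIST1H2BC fell 4.25-fold, with 0.536, 0.687 and 0.806 CPM from co-culture against 2.61, 2.94 and 3.11 CPM in isolation (edgeR adjusted p = 4.1e-08). HIST1H2BJ fell 4.51-fold, with 0.477, 0.687 and 0.346 CPM from co-culture against 1.71, 1.99 and 3.14 CPM in isolation (edgeR adjusted p = 4.1e-06). These H2B genes thus moved with HIST1H2BK at a lower level and with no overlap between groups. HIST2H2BE, an H2B gene of the chromosome 1 cluster, fell less, by 2.55-fold, with 1.67, 2.32 and 1.67 CPM from co-culture against 3.45, 5.18 and 5.82 CPM in isolation (edgeR adjusted p = 5.5e-06). Both described transcribed pseudogenes named HIST2 also fell, HIST2H2BA 3.51-fold (edgeR adjusted p = 6.5e-05) and HIST2H2BC by 0.98 on the log2 scale. HIST2H2BA lies on chromosome 1 but outside that cluster.

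HIST1H1E, which encodes linker histone H1.4, was the 1 described row called higher in lineage 35 when rows are taken singly. It had 2.71, 2.49 and 2.02 CPM from co-culture, against 1.36, 1.36 and 0.965 CPM in isolation, and rose 1.96-fold (0.97 ± 0.2, edgeR adjusted p = 0.0003). It rose in lineage 22 as well, with 2.93, 2.26 and 1.98 CPM from co-culture against 1.09, 0.962 and 1.12 CPM in isolation (2.26-fold, edgeR adjusted p = 7.7e-05). In lineage 45 it had 3.68, 2.81 and 2.91 CPM from co-culture against 1.6, 1.43 and 1.83 CPM in isolation (1.93-fold, edgeR adjusted p = 0.00057). Its groups overlapped in no lineage, and it was the only described row that rose in all 3.

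**Figure D2:**
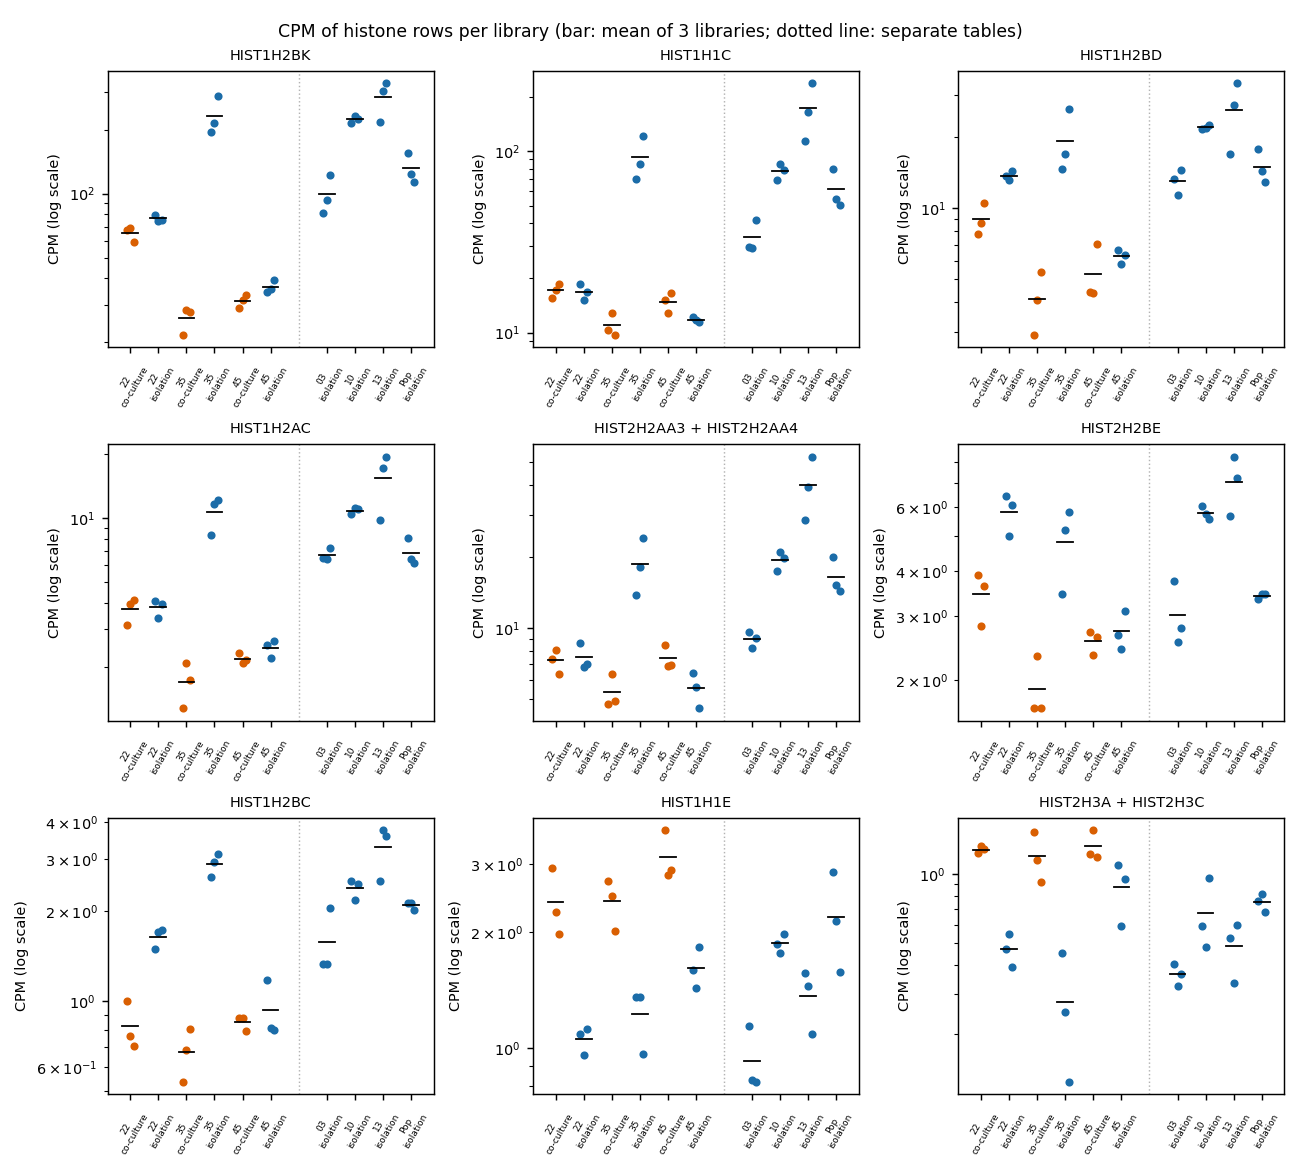
CPM per library (log axes) of the members with the most counts, co-culture (orange) left of isolation (blue), with a dotted line between the tables. HIST1H2BK, HIST1H1C and HIST1H2AC of lineage 35 are lower from co-culture with no overlap, and HIST1H1E is higher from co-culture in each of the 3 lineages.

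Of the 29 rows, 10 belong to sets that can share reads, in which a gene has at least 50% of its annotated 75-base stretches in another member. Most are near-identical copies. The exception is the H2A gene HIST1H2AM, set with the H3 gene HIST1H3J because their annotated spans overlap. Rows under the 50% limit may share reads too. HIST2H2BA had 41.5% of its stretches in HIST2H2BF, and HIST2H2AC had 23.7% in HIST2H2AA3. The deposited values put whole libraries at 0 for a copy while its partner was counted, so such copies are given as sums. The sum of HIST2H2AA3 and HIST2H2AA4, which encode the same H2A, was 4.77, 6.36 and 4.92 CPM in lineage 35 from co-culture, against 13.7, 18.1 and 24 CPM in isolation, and fell 3.47-fold (edgeR adjusted p = 4.8e-08). The sum of HIST2H3A and HIST2H3C, which encode H3.2, went the other way in lineage 35, with 1.52, 1.15 and 0.921 CPM from co-culture against 0.452, 0.249 and 0.124 CPM in isolation (4.33-fold, edgeR adjusted p = 1.9e-05). It also rose in lineage 22, with 1.23, 1.32 and 1.28 CPM against 0.47, 0.545 and 0.392 CPM (2.73-fold, edgeR adjusted p = 0.00059). In lineage 45 the same sum was 1.22, 1.55 and 1.19 CPM from co-culture and 1.09, 0.594 and 0.951 CPM in isolation. The H4 sum of HIST2H4A and HIST2H4B was 1.19, 1.55 and 1.32 CPM in lineage 35 from co-culture, against 1.29, 1.05 and 1.12 CPM in isolation, and was not called.

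In lineage 22, 2 described rows rose and 6 fell, where 27% of all genes tested were higher, 30% lower and 56.9% either, with a median of 0.28 against -0.04 over all genes, and in the 20 rows with a mean of at least 0.5 CPM 1 rose and 5 fell with a median of 0. HIST1H2BK had 67.4, 68.6 and 59.5 CPM from co-culture, against 79.4, 74.7 and 75.5 CPM in isolation (-0.23 ± 0.12, edgeR adjusted p = 0.11). HIST1H1C had 15.6, 17.1 and 18.6 CPM from co-culture, against 18.5, 15.1 and 16.8 CPM in isolation (0.02 ± 0.16, edgeR adjusted p = 0.91). Of the 6 rows that fell, 5 were H2B rows: HIST1H2BC by 1.98-fold (edgeR adjusted p = 0.00063), HIST2H2BE by 1.7-fold (edgeR adjusted p = 0.0018), HIST1H2BD by 1.52-fold (edgeR adjusted p = 0.027), and the pseudogenes HIST2H2BA by 2.05-fold and HIST2H2BC by 0.72 on the log2 scale. HIST1H2BC had 1, 0.762 and 0.706 CPM from co-culture and 1.5, 1.7 and 1.73 CPM in isolation, and HIST2H2BE had 3.9, 2.81 and 3.63 CPM from co-culture and 6.43, 5 and 6.09 CPM in isolation. HIST1H4H, an H4 gene, was the sixth. HIST1H3H, an H3 gene, was called higher at the threshold (1.12 ± 0.47, edgeR adjusted p = 0.047), and lost the call without replicate 1 or 2 of either group (adjusted p of 0.088 to 0.2). The HIST1H2BD call was lost without isolation replicate 1 or 3 or co-culture replicate 1 or 2 (0.056 to 0.097). Those of HIST1H4H (without isolation replicate 3 or co-culture replicate 1, 0.098 to 0.1), HIST2H2BA (without isolation replicate 2 or co-culture replicate 3, 0.066 to 0.067) and HIST2H2BC (without isolation replicate 1, 0.056) were lost as well.

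In lineage 45, 1 described row rose and 1 fell, where 18.6% of all genes tested were higher, 23.2% lower and 41.8% either, with a median of 0.18 against -0.03, and 4 rows had an unadjusted p below 0.05. Over the 20 rows with a mean of at least 0.5 CPM the median had the other sign (-0.13). The row that rose was HIST1H1E and the row that fell was HIST2H2BA, with 0.707, 0.263 and 0.481 CPM from co-culture against 1.12, 1.32 and 1.05 CPM in isolation (2.39-fold, edgeR adjusted p = 0.0031). HIST2H2BA was called lower in all 3 lineages. HIST1H2BK had 28.8, 31.5 and 33.4 CPM from co-culture, against 34.3, 35.5 and 39.3 CPM in isolation, and was not called (-0.22 ± 0.12, edgeR adjusted p = 0.17). HIST1H1C had 15.1, 12.8 and 16.5 CPM from co-culture, against 12.2, 11.7 and 11.5 CPM in isolation, and was not called (0.32 ± 0.16, edgeR adjusted p = 0.12).

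**Figure D3:**
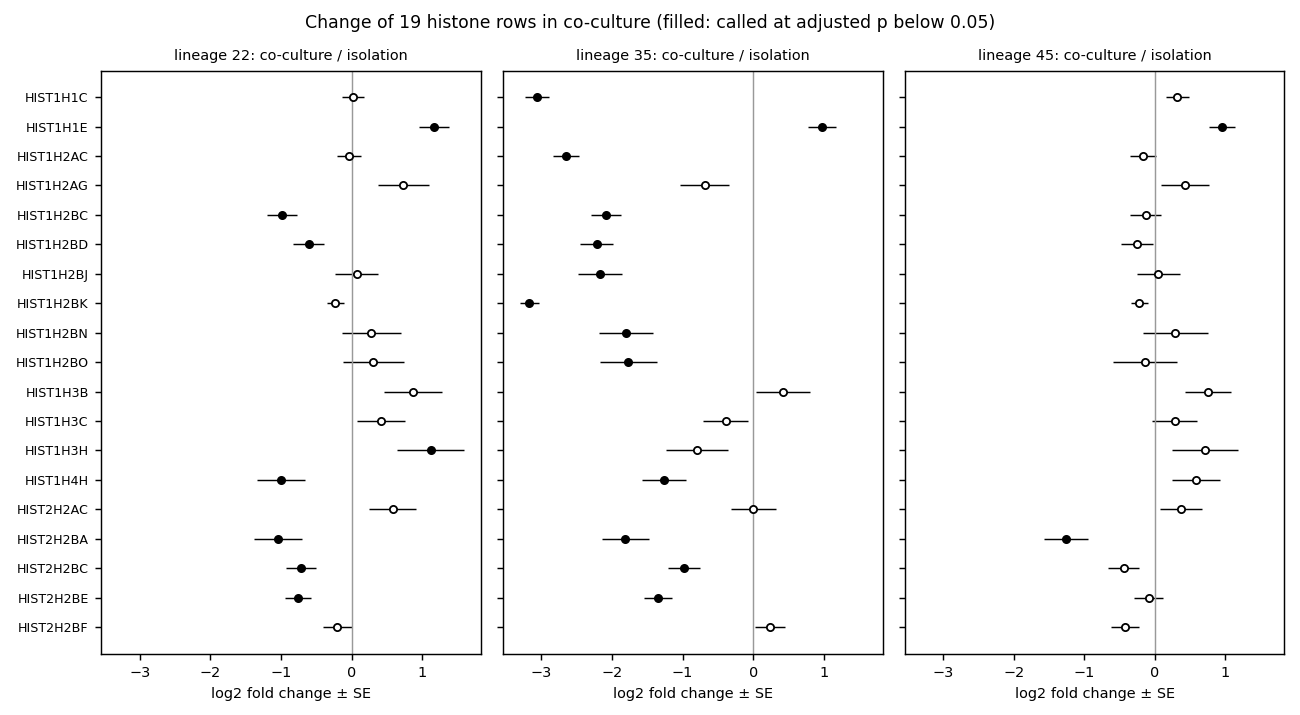
Log2 fold changes, co-culture over isolation, of the 19 described rows outside the sets that can share reads, in lineages 22, 35 and 45 (filled points were called, bars are SE). Lineage 35 shows the fall of HIST1H2BK to -3.17 and of HIST1H1C to -3.07, and HIST1H1E lies right of 0 in each lineage.

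The change with co-culture was then tested between lineages in the same model. An F test over the 3 lineages called 13 of 29 rows (44.8%), against 55.2% of all genes, with edgeR adjusted p of 2.4e-11 for HIST1H2BK, 8.5e-10 for HIST1H1C, 2.8e-08 for HIST1H2AC and 0.73 for HIST1H1E. Lineage 35 against lineage 45 gave 11 rows with a lower response and none with a higher one when rows are taken singly. Of all genes tested, 22.8% were higher, 19.5% lower and 42.3% either. Among copies summed, HIST2H3A with HIST2H3C had a higher response in lineage 35 (1.53, edgeR adjusted p = 0.009). The sums of HIST2H2AA3 with HIST2H2AA4 (-2.22) and HIST1H2AI with HIST1H2AJ (-2.42) had a lower one. The response of HIST1H1C was 10.5-fold lower (-3.39 ± 0.23, edgeR adjusted p = 1.2e-09) and that of HIST1H2BK 7.71-fold lower. Lineage 22 against lineage 35 gave 11 rows with a higher response, where 24.2% of all genes tested were higher, 25.4% lower and 49.6% either, led by HIST1H1C (3.09 ± 0.23) and HIST1H2BK (2.93 ± 0.18). Lineage 22 against lineage 45 gave 1 row, HIST1H4H, with a lower response (-1.58 ± 0.48; lost without lineage 22 isolation replicate 3, 22 co-culture replicate 1, 45 isolation replicate 1 or 45 co-culture replicate 2, adjusted p of 0.056 to 0.092), where 9.25% of all genes tested were higher, 8.08% lower and 17.3% either. These comparisons share libraries with the ones above.

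In isolation the H1, H2A and H2B sums of lineage 35 lay above those of both other lineages, while its H3 sum (1.96 CPM) lay below that of lineage 45 (2.71 CPM) and its H4 sum (3.04 CPM) below that of lineage 22 (3.62 CPM). Against lineage 45, 12 rows were higher and 1 was lower, where 24.3% of all genes tested were higher, 27.6% lower and 51.8% either, with a median of 1.19 against -0.03, and among 20 rows with a mean of at least 0.5 CPM 8 were higher and 1 lower. HIST1H1C was 7.8-fold higher in lineage 35 (edgeR adjusted p = 3.3e-11) and HIST1H2BK 6.39-fold higher (edgeR adjusted p = 8.7e-13). HIST2H2BF, an H2B gene of the chromosome 1 cluster, was 1.72-fold lower (edgeR adjusted p = 0.0029). It had 0.872, 0.942 and 1.03 CPM in lineage 35 and 1.99, 1.43 and 1.48 CPM in lineage 45. The sum of HIST2H3A and HIST2H3C was also lower in lineage 35 (-1.67, edgeR adjusted p = 0.00041), while those of HIST2H2AA3 with HIST2H2AA4 (1.75) and HIST1H2AI with HIST1H2AJ (1.47) were higher. Lineage 22 against 35 gave no single row higher and 11 lower, where 32.2% of all genes tested were higher, 31.4% lower and 63.6% either. HIST1H1C was 5.5-fold and HIST1H2BK 3.03-fold lower in lineage 22. The 11 include HIST1H4J, at 0 in lineage 22 while its copy HIST1H4K was counted. Their sum was not called (-0.2, edgeR adjusted p = 0.61). The sum of HIST2H4A and HIST2H4B was higher in lineage 22 (0.84, edgeR adjusted p = 0.00051), and those of HIST2H2AA3 with HIST2H2AA4 (-1.31) and HIST1H2AI with HIST1H2AJ (-2.08) were lower. Lineage 22 against 45 gave 8 rows higher and 3 lower, where 18.6% of all genes tested were higher, 19.8% lower and 38.4% either. There HIST1H2BD was 2.19-fold, HIST2H2BE 2.14-fold and HIST1H2BK 2.11-fold higher in lineage 22, and HIST1H1E was lower (log2 fold change -0.61). The HIST1H1E call was lost without lineage 22 replicate 1 or 2 or lineage 45 replicate 3 (adjusted p of 0.055, 0.084 and 0.1). The lower rows HIST1H2AJ (0.063 to 0.065) and HIST1H3B (0.061 to 0.24) also lost their calls without certain single libraries. So did the higher rows HIST1H1C, HIST1H4H and HIST2H2BC (0.05 to 0.15). The sum of HIST1H2AI with HIST1H2AJ was not called (-0.61, edgeR adjusted p = 0.23). That of HIST2H3A with HIST2H3C was lower (-0.91) and that of HIST2H4A with HIST2H4B higher (0.77).

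From co-culture fewer rows were called between lineages. Lineage 22 against 35 gave 5 rows higher and none lower, where 15.6% of all genes tested were higher, 15.5% lower and 31.1% either, with HIST1H2BK 2.52-fold higher (edgeR adjusted p = 2.4e-07). Lineage 22 against 45 gave 3 rows higher and 1 lower, where 13.2% of all genes tested were higher, 12% lower and 25.2% either, with HIST1H2BK 2.09-fold higher (edgeR adjusted p = 4.3e-06), HIST1H2AC and HIST1H2BD each higher by 0.77 on the log2 scale and the H3 gene HIST1H3B lower (-0.98). That comparison gave 2 calls without lineage 22 replicate 3 or lineage 45 replicate 1 or 2, where the HIST1H2BD call was lost too (adjusted p of 0.088 to 0.096). The HIST1H3B call was lost with the replicate block and without any single library of these groups (adjusted p of 0.054 to 0.12 over the libraries). The libraries labelled 35 against lineage 45 gave 0 rows with edgeR at the adjusted threshold, where 6.42% of all genes tested were higher, 6.28% lower and 12.7% either, with 5 rows at an unadjusted p below 0.05 and 0 with DESeq2. HIST1H2BK there differed by -0.27 ± 0.13 and HIST1H1C by -0.43 ± 0.16 on the log2 scale.

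The second table set lineages 03, 10 and 13 against Pop. Lineage 13 had the highest levels: 15 described rows were higher and 2 lower, where 21% of all genes tested were higher, 24.2% lower and 45.2% either, with a median of 0.75 against -0.01 over all genes, and the counts were the same over the 21 rows with a mean of at least 0.5 CPM. HIST1H1C had 114, 165 and 237 CPM in lineage 13, against 79.5, 54.5 and 50.6 CPM in Pop (2.8-fold, 1.48 ± 0.24, edgeR adjusted p = 0.00022). HIST1H2BK had 217, 304 and 331 CPM in lineage 13, against 156, 124 and 114 CPM in Pop (2.16-fold, 1.11 ± 0.17, edgeR adjusted p = 0.00015). Neither overlapped between the groups, and the lineage 13 libraries differed widely among themselves. HIST1H2AC was 2.25-fold and HIST2H2BE 2.07-fold higher. HIST1H1E was lower, with 1.57, 1.45 and 1.09 CPM in lineage 13 and 2.86, 2.14 and 1.58 CPM in Pop (1.6-fold, edgeR adjusted p = 0.026). That call was lost without lineage 13 replicate 2 or 3 or Pop replicate 1 or 2 (adjusted p of 0.051 to 0.12).

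By class, 8 of 10 H2B rows and 4 of 7 H2A rows were higher in lineage 13 than in Pop and no H3 row was called. Without lineage 13 replicate 2, 11 rows were called in place of 17. The H4 calls include HIST2H4A higher and HIST2H4B lower, near-identical copies that were at 0 in whole libraries, for which no fold is given. Their sum was 1.69, 1.92 and 2.37 CPM in lineage 13 and 2.19, 1.05 and 1.22 CPM in Pop. The sum of HIST2H2AA3 and HIST2H2AA4 was 2.44-fold higher in lineage 13 (edgeR adjusted p = 9e-05), with 28.5, 39.3 and 52.8 CPM there and 19.9, 15.1 and 14.3 CPM in Pop.

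Lineage 10 against Pop gave 8 rows higher and none lower, where 18.8% of all genes tested were higher, 23.5% lower and 42.3% either, with a median of 0.29. HIST1H2BK had 214, 232 and 225 CPM in lineage 10, against 156, 124 and 114 CPM in Pop (1.7-fold, edgeR adjusted p = 0.0026). HIST2H2BE had 6.04, 5.76 and 5.57 CPM in lineage 10, against 3.35, 3.46 and 3.45 CPM in Pop (1.69-fold, edgeR adjusted p = 0.002). HIST1H1C had 69.7, 84.7 and 79.2 CPM in lineage 10 and overlapped Pop (0.34 ± 0.24, edgeR adjusted p = 0.26). The call count fell to 3 without lineage 10 replicate 3, to 4 without Pop replicate 2 or 3 and to 5 without lineage 10 replicate 2. It was 5 with the replicate block.

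Lineage 03 against Pop gave no row higher and 5 lower, where 23.2% of all genes tested were higher, 25.5% lower and 48.7% either, with a median of -0.43 against -0.03, and 13 rows had an unadjusted p below 0.05. HIST1H1E had 1.14, 0.828 and 0.819 CPM in lineage 03, against 2.86, 2.14 and 1.58 CPM in Pop (2.37-fold lower, edgeR adjusted p = 0.00081). HIST1H1C had 29.8, 29.4 and 41.9 CPM in lineage 03, against 79.5, 54.5 and 50.6 CPM in Pop (1.82-fold lower, edgeR adjusted p = 0.0092), a call lost without Pop replicate 1 (adjusted p = 0.1 by edgeR). The other rows called were HIST1H2AG, an H2A gene (2.22-fold lower, edgeR adjusted p = 0.0035), and the H3 genes HIST1H3C (-1.32) and HIST1H3H (-1.51). The HIST1H3C call was lost without any single lineage 03 library or Pop replicate 1 (adjusted p of 0.053 to 0.079), and that of HIST1H3H without any lineage 03 library or Pop replicate 1 or 3 (0.053 to 0.13). HIST1H2BK had 81.4, 93.4 and 123 CPM in lineage 03 and was not called (-0.4 ± 0.17, edgeR adjusted p = 0.066). The number of calls was 3 without Pop replicate 1, 8 without lineage 03 replicate 3 and 9 with copies summed.

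Among the lineages of the second table, lineage 03 lay below lineages 10 and 13. Lineage 03 against 10 gave no row higher and 15 lower, where 26.4% of all genes tested were higher, 25% lower and 51.4% either, and lineage 03 against 13 gave 1 higher and 18 lower, where 26.1% of all genes tested were higher, 27.1% lower and 53.2% either. HIST1H1C was 5.1-fold lower in lineage 03 than in lineage 13 (-2.35 ± 0.25, edgeR adjusted p = 3.8e-06) and HIST1H2BK 2.85-fold lower. The 1 row called higher was HIST2H4B, the copy at 0 in whole libraries. Lineage 10 against 13 gave 1 row higher and 5 lower, where 16.6% of all genes tested were higher, 18% lower and 34.6% either. The H4 calls there, 1 higher and 1 lower, are the copies HIST2H4B (1.62 and 0 CPM) and HIST2H4A (0 and 1.99 CPM). Their sum was not called (-0.3, edgeR adjusted p = 0.38). HIST1H1C was 2.21-fold lower in lineage 10 (-1.14 ± 0.24). HIST1H2BK was not called there (-0.34 ± 0.17, edgeR adjusted p = 0.14). That comparison gave 10 calls without lineage 13 replicate 1.

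**Figure D4:**
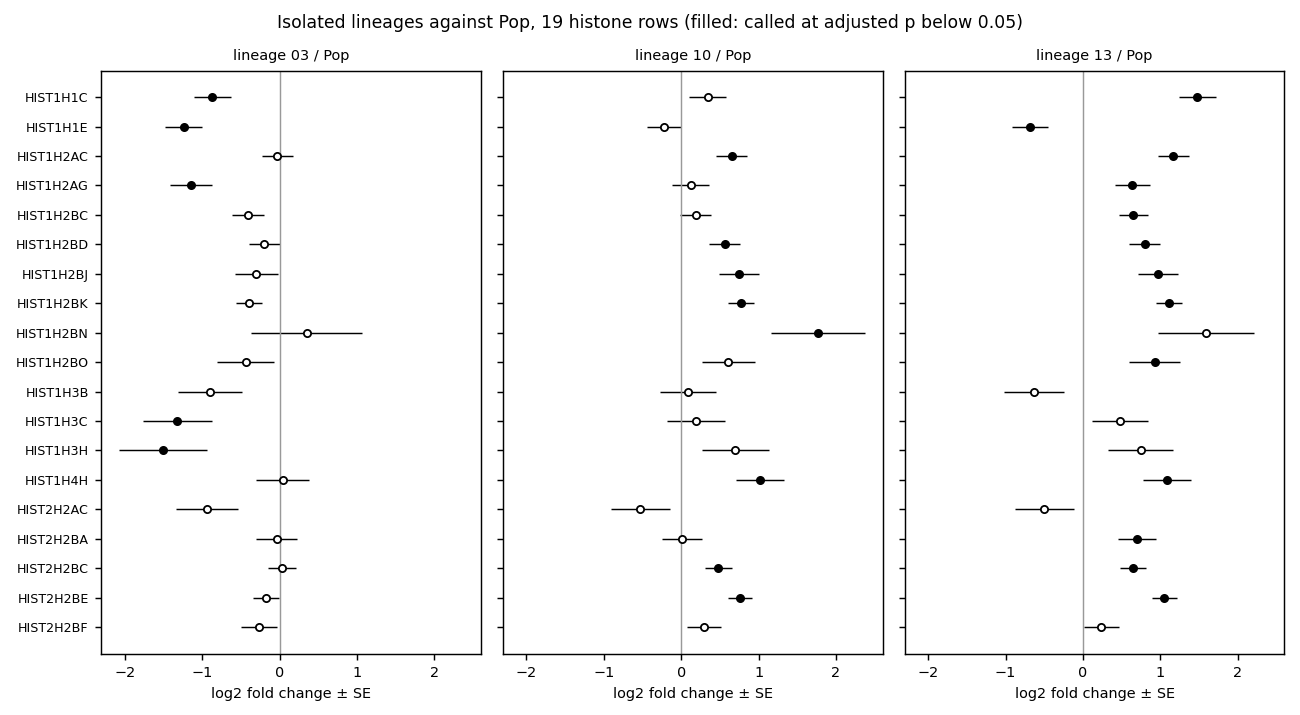
Log2 fold changes over Pop of the 19 described rows outside the sets that can share reads, in lineages 03, 10 and 13 (filled points were called, bars are SE). Lineage 13 lies right of 0 for HIST1H1C at 1.48 and HIST1H2BK at 1.11, and lineage 03 lies left of 0 for HIST1H1E at -1.24.

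The linker histones outside the clusters give a comparison. H1F0 encodes H1.0 and H1FX encodes H1.10, both made from polyadenylated RNA through the cycle, and H1.0 is known from cells that differentiate. H1F0 had 287, 282 and 272 CPM in lineage 35 from co-culture, against 77, 82.2 and 91.2 CPM in isolation (1.75 ± 0.08, edgeR adjusted p = 5.6e-13). H1FX had 196, 158 and 165 CPM from co-culture, against 59.6, 60.9 and 76.3 CPM in isolation (1.4 ± 0.1, edgeR adjusted p = 1.8e-10). Both rose where HIST1H1C fell. H1F0 was also called higher from co-culture in lineage 22 (0.37 ± 0.08) and in lineage 45 (0.34 ± 0.08). H1FX rose by 1 ± 0.1 in lineage 22 and by 0.75 ± 0.1 in lineage 45. In lineage 13 H1F0 had 94.2, 115 and 108 CPM, against 253, 178 and 197 CPM in Pop (-0.99 ± 0.12, edgeR adjusted p = 2e-05), lower where HIST1H1C was higher. H1FX did not mirror HIST1H1C there, with 118, 137 and 130 CPM in lineage 13 and 119, 106 and 99.9 CPM in Pop. In lineage 03 H1F0 averaged 177 CPM, against 209 CPM in Pop, and HIST1H1C was lower too. In lineage 10 H1F0 averaged 151 CPM, and HIST1H1C was not called.

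**Figure D5:**
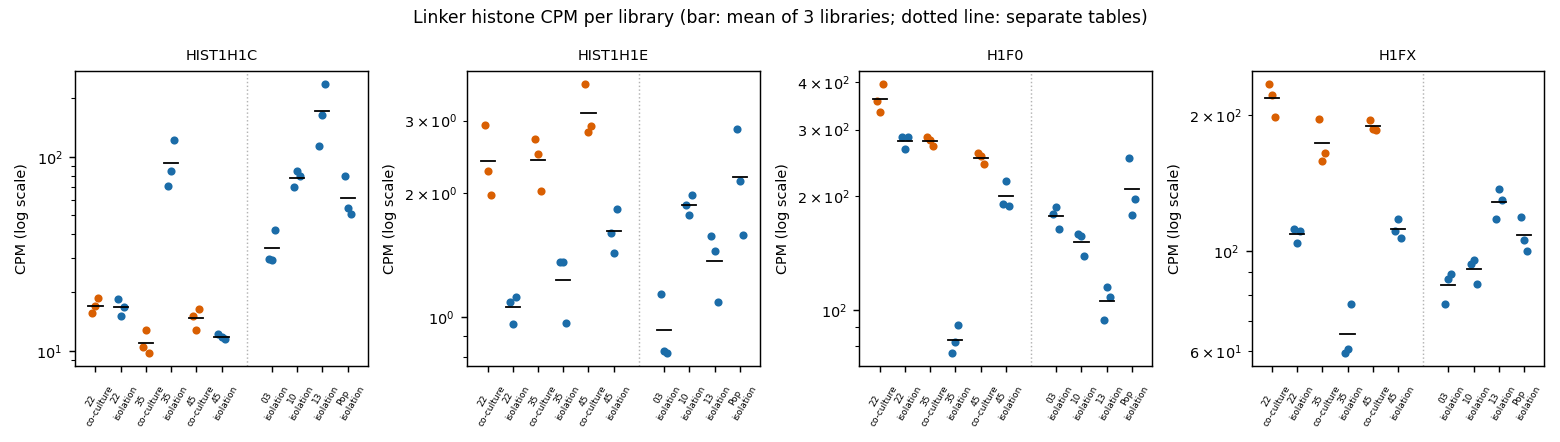
CPM per library (log axes) of the linker histone genes HIST1H1C, HIST1H1E, H1F0 and H1FX, co-culture (orange) left of isolation (blue), with a dotted line between the tables. In lineage 35 HIST1H1C is lower from co-culture, with group means of 11 against 92.3 CPM, while H1F0 averages 280 CPM from co-culture against 83.5 CPM in isolation.

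Of 10 histone genes tested outside the clusters, listed here as replication-independent, 5 rose and 1 fell in lineage 35 from co-culture. In lineage 22, 6 rose and none fell, and in lineage 45, 6 rose and none fell. Against Pop, 6 were lower in lineage 03, 3 in lineage 10 and 4 in lineage 13, with 1 higher in lineage 13. In lineage 35 that is a share near the 65.5% of all genes called, and against Pop 25.5% of all genes were lower in lineage 03, 23.5% in lineage 10 and 24.2% in lineage 13. In lineages 22 and 45, 27% and 18.6% of all genes rose. H2AFJ, an H2A variant gene, rose by 1.46 ± 0.12 in lineage 35, and H2AFX, whose product is phosphorylated at DNA breaks, rose by 0.84 ± 0.07 in lineage 22.

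The chromosome position of the members was set beside their changes. Of the 18 described rows of the HIST1 cluster on chromosome 6, 1 rose and 10 fell in lineage 35 from co-culture, with a median of -1.5. Of the 11 rows named HIST2 on chromosome 1, none rose and 3 fell, with a median of -0.6. These 11 include HIST2H2BA, which fell and starts at base 121108210, outside the cluster that holds the others, such as HIST2H2BE at base 149884459. Of 32 other genes tested within 1 Mb of the HIST1 cluster, none rose and 29 fell, where 32.9% of all genes fell, with a median of -0.85, among them BTN3A2 (-1.75) and ZNF184 (-1.48). Of 24 genes within 1 Mb of the HIST2 cluster 10 rose and 4 fell, where 32.7% of all genes rose, with a median of 0.08. In isolation, 25 of the 32 HIST1 neighbours were higher and 1 lower in lineage 35 than in lineage 45, where 24.3% of all genes were higher, with a median of 0.74. In lineage 13 against Pop, 29 of 37 HIST1 neighbours were higher and 3 lower, where 21% of all genes were higher, with a median of 0.53. The rows of the HIST1 cluster had a median of 0.79 there and the rows named HIST2 0.65. In lineage 22 from co-culture, 1 neighbour rose and 16 fell, where 30% of all genes fell. The median was -0.34, against 0.29 for the HIST1 rows. In lineage 45, 4 rose and 11 fell, where 23.2% of all genes fell (medians 0.02 and 0.28). Against Pop, 11 of 37 were higher and 8 lower in lineage 03, where 23.2% and 25.5% of all genes were (medians 0.03 and -0.53). In lineage 10, 12 were higher and 3 lower, where 18.8% of all genes were higher (0.27 and 0.45). The part of the neighbourhood in these results was not tested.

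Divergent H2A and H2B genes share a promoter region at 12 pairs of starts, and their values went separate ways at some. HIST1H2AH and HIST1H2BK start 331 bases apart. HIST1H2AH averaged 0.292 CPM in lineage 35 from co-culture and 0.158 CPM in isolation, where HIST1H2BK averaged 25.9 and 232 CPM. HIST2H2AC averaged 0.62 CPM in lineage 35 from co-culture and 0.628 CPM in isolation, and its partner HIST2H2BE, 323 bases away, 1.89 and 4.82 CPM. HIST1H2AC and HIST1H2BC, 219 bases apart, moved together, with 1.7 against 10.7 CPM and 0.677 against 2.89 CPM.

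Genes of histone RNA synthesis and of the cell cycle were listed beside the members. Of 24 genes for histone gene transcription and 3′ processing, 5 rose and 8 fell in lineage 35 from co-culture, 10 rose and 5 fell in lineage 22, and 10 rose and 6 fell in lineage 45. In lineage 35 LSM10, a part of the U7 particle that cuts histone transcripts, fell by 0.54 on the log2 scale, and CSTF2, a factor of cleavage and polyadenylation, rose by 0.91. SLBP and NPAT, an activator of histone gene transcription, were picked after their values were seen: SLBP was not called in lineages 22, 35 or 45 (0.12, 0.15 and 0.15), was lower in lineage 03 than in Pop (-0.67 ± 0.11, edgeR adjusted p = 0.00025), and NPAT fell in lineage 35 (-0.41). Against Pop, 3 of the 24 were higher and 13 lower in lineage 03, 6 were higher and 5 lower for lineage 10, and 2 higher and 3 lower for lineage 13.

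Of 27 S phase genes, 14 rose and 7 fell in lineage 35 from co-culture, with FEN1, a flap nuclease, up by 0.87 and POLA1, a subunit of DNA polymerase alpha, at -0.99. In lineage 22, 21 rose and 1 fell, with TK1, thymidine kinase, up by 0.94, and in lineage 45, 8 rose and 4 fell. Against Pop, 9 were higher and 4 lower in lineage 13, none higher and 13 lower in lineage 10, and 1 higher and 11 lower in lineage 03. CDKN1A, which encodes the cycle inhibitor p21, was lower from co-culture in lineage 35 (-1.09 ± 0.08, edgeR adjusted p = 3e-10) and less so in lineages 22 (-0.28) and 45 (-0.24). It was higher than Pop in lineages 13 (1.09 ± 0.11, edgeR adjusted p = 3e-06) and 03 (0.71) and lower in lineage 10 (-0.49). Of 20 genes of G2 and mitosis, 5 rose and 7 fell in lineage 35 from co-culture, 10 rose and 1 fell in lineage 22, and 4 rose and 3 fell in lineage 45. Of 15 histone chaperone genes, 3 rose and 6 fell in lineage 35, 9 rose and 2 fell in lineage 22, and 3 rose and 3 fell in lineage 45. Over all genes, lineage 35 had 32.7% called higher and 32.9% lower, lineage 22 had 27% higher and 30% lower, and lineage 45 had 18.6% higher and 23.2% lower. In lineage 35 the counts of the G2 and mitosis list and of the chaperone list are thus not far from the background. The 14 of 27 S phase genes that rose there are a larger share than that of all genes. Against Pop, lineage 13 had 21% of all genes higher and 24.2% lower, lineage 10 had 18.8% higher and 23.5% lower, and lineage 03 had 23.2% higher and 25.5% lower. The part of cycling in the histone results was not tested.

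Among RNAs without a poly(A) tail other than histones, 4 rose and 3 fell of 19 tested in lineage 35 from co-culture, with RMRP at 2.86 and RN7SL1 at -1.29, 1 rose and 5 fell in lineage 22, and 1 rose and 5 fell in lineage 45. Against Pop, 1 was higher and 1 lower of 17 in lineage 03, 3 were lower in lineage 10 and 1 in lineage 13. The summed level of the 504 rows on this list was lower from co-culture in all 3 lineages with no overlap. It was 23.7 to 33.2 CPM against 38.2 to 49.3 CPM in isolation in lineage 35. The ranges were 14.8 to 30.2 against 72.3 to 83.7 CPM in lineage 22 and 27.9 to 28.1 against 75.1 to 80.6 CPM in lineage 45. The part of these RNAs in the histone results was not tested. Beside these lists and the marker lists below, 32.7% of all genes rose and 32.9% fell in lineage 35 from co-culture. The shares were 27% and 30% in lineage 22 and 18.6% and 23.2% in lineage 45. Lower than Pop were 25.5% of all genes in lineage 03, 23.5% in lineage 10 and 24.2% in lineage 13, and 23.2% were higher in lineage 03. Markers of other cells also moved. In lineage 35 the 4 leukocyte markers tested rose, with a summed level of 173 to 191 CPM from co-culture against 45.2 to 70.8 CPM in isolation. The endothelial and erythroid list summed to 124 to 134 CPM from co-culture against 6.29 to 7.37 CPM in isolation, with ESAM at 4.23 and PECAM1 at 4.33 on the log2 scale, while CD3E, CDH5 and HBB were at or near 0. In lineage 35 against 45 in isolation, 4 of 4 leukocyte and 3 of 4 endothelial and erythroid markers tested were lower, where 27.6% of all genes were lower. In lineage 13 against Pop, all markers tested of the leukocyte (3), endothelial and erythroid (2) and fibroblast (2) lists were lower, with leukocyte sums of 81.7 to 108 CPM in lineage 13 and 205 to 234 CPM in Pop and endothelial and erythroid sums of 6.13 to 8 CPM in lineage 13 and 80.7 to 94.3 CPM in Pop. Both fibroblast markers tested fell with co-culture in lineages 22 and 45, at sums of at most 2.28 CPM in any of these libraries. The part of these markers in the histone results was not tested.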

How the data were processed

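RNA of 30 libraries was sequenced as paired 75-base reads from 500 ng of RNA per the labels' protocols. STAR 2.6.1d, Salmon 1.4.0 and GRCh38 (hg38) are named in the submitters' processing notes. The authors deposited length-scaled estimated counts per gene in 2 tables made separately; the annotation and filters are not given in the sources used here. Values were rounded to whole counts and each table was fitted over all its groups with edgeR 4.0.16 (R 4.3.3, limma 3.58.1): filterByExpr, TMM scaling, robust quasi-likelihood test, Benjamini-Hochberg adjustment over 14570 or 14638 genes, threshold 0.05. SE is the log2 fold change divided by the square root of F. In each table the common biological coefficient of variation was 10.4%. CPM intervals and floors cover counting error only. Tested on simulated data with known changes, 87.9% of genes changed by 1 and 53.6% of those changed by 0.5 on the log2 scale were called for lineage 22 co-culture against isolation (14292 genes). For lineage 03 against Pop these were 89.9% and 53.5% (14406 genes). Few genes were changed there, drawn at random from all levels, so these rates do not give the sensitivity for histone rows of low CPM.

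The members and gene lists were chosen with earlier results of these data known. Named members were the 8 with the highest mean per table and, per comparison, up to 4 rises and 4 falls called among rows averaging at least 1 CPM; other members named were chosen after their values were seen. Of each list up to 4 genes with the smallest p could be named. Names and sequences came from GENCODE 29 and RefSeq GRCh38.p14 (73 of 73 members matched). Replicate numbers were checked for pairing: same-numbered libraries of lineages 22 and 45 from co-culture deviated together (correlations of 0.36, 0.25 and 0.17), and the block there called 3 rows in place of 4. No other pair of groups passed 0.1 in all 3. Alternatives tried were DESeq2 1.42.0, another normalization, filters, thresholds, copies summed, the replicate block and leaving out each library.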

Additional observations from a re-analysis of the deposited data

Results flagged for a closer look

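For 13 of the 29 described rows, the effect of co-culture over isolation was unequal among the 3 lineages (edgeR F test, adjusted over all genes). That is 44.8% of the rows, against 55.2% of all genes tested. The difference between the responses of lineages 22 and 35 was called for 11 rows (37.9%, against 49.6% of all genes). That between lineages 35 and 45 was called for 11 rows (37.9%, against 42.3%), and that between lineages 22 and 45 for 1 row (3.45%, against 17.3%). None of these counts stood above the background. Both counts of 11 rest on the libraries labelled 35 from co-culture and on lineage 35 in isolation, which correlated at 0.924 with each other and, for lineage 35 in isolation, at 0.921 to 0.942 with every other group of the table.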

How the results depend on the processing

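Of 161 calls of a described row in a comparison, 109 held under every setting run, 52 were lost under at least 1, and 0 reversed. With rows of at least 5 CPM only, which leaves 7 of 29 rows, the calls were 2, 5 and 0 for co-culture against isolation in lineages 22, 35 and 45. For lineages in isolation they were 3 (22 against 35), 5 (22 against 45) and 5 (35 against 45), and for the differences in response 4 (22 and 35), 0 (22 and 45) and 5 (35 and 45). Against Pop they were 2, 4 and 6 for lineages 03, 10 and 13, and between those lineages 6 (03 against 10), 7 (03 against 13) and 2 (10 against 13). DESeq2 gave 0 rows for the difference in response of lineages 22 and 45. With copies summed, lineage 03 against Pop gave 9. With the replicate block, lineage 10 against Pop gave 5. A limit of 1 CPM would describe 19 rows. The cause of these changes was not tested, other than the rows removed by a filter.

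Leaving out 1 library at a time gave 6 to 8, 14 to 15 and 2 to 3 calls for co-culture in lineages 22, 35 and 45. In isolation it gave 9 to 12 (22 against 35), 7 to 9 (22 against 45) and 11 to 13 (35 against 45). From co-culture it gave 5 to 6 (22 against 35), 2 to 4 (22 against 45) and 0 to 0 (35 against 45). Responses gave 10 to 12 (22 and 35), 0 to 2 (22 and 45) and 9 to 12 (35 and 45). Against Pop it gave 3 to 8 for lineage 03, 3 to 7 for lineage 10 and 11 to 17 for lineage 13, where 11 came without lineage 13 replicate 2. Lineage 03 against 10 gave 12 to 15, lineage 03 against 13 gave 18 to 20 and lineage 10 against 13 gave 4 to 10. Without the libraries labelled 35 from co-culture, a setting chosen after seeing the data, 7 and 2 rows were called for co-culture in lineages 22 and 45, and 12, 11 and 13 for 22 against 35, 22 against 45 and 35 against 45 in isolation. Rows near the 3-count floor cannot show small changes at this depth.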
